A study of Mus musculus with 42 samples.

Results

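Antibody genes were examined in mouse Pan02 tumours as the immunoglobulin heavy, kappa and lambda chain rows of the deposited gene table. Rows were chosen by symbol (heavy chain V, D and constant genes, kappa V and constant genes, lambda V and constant genes, without the helicase gene Ighmbp2) and kept where the deposited value was at least 10 in at least 3 of 42 tumours. This left 85 members of 381 immunoglobulin rows, in a table of 47729 rows. The members were 7 of 8 heavy constant genes, 24 of 185 heavy V genes, 0 of 20 heavy D segments, the kappa constant gene Igkc, 48 of 160 kappa V genes, 3 of 4 lambda constant genes and 2 of 3 lambda V genes. Of the members 31 lie on chromosome 12, 49 on chromosome 6 and 5 on chromosome 16 (GRCm38), and 0 of the 133 rows annotated as pseudogenes were members.

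Pan02 is a mouse pancreatic adenocarcinoma line, and the tumours were grown under the skin of the flank of C57BL/6 mice. BXCL701, also known as talabostat, is an oral inhibitor of dipeptidyl peptidases. The groups were BXCL701 at 20 ug per mouse, given as a single dose and collected on day 1 at 1, 8 and 16 h, or given daily and collected on day 7 or day 14 at 0, 1, 8 and 16 h. The vehicle, PBS, was represented by tumours taken at 0 h on each of those days. The design has 14 groups of 3 tumours, 33 BXCL701 tumours and 9 vehicle tumours in all, each from a separate animal. Because vehicle tumours represent 0 h alone, treatment and harvest hour cannot be told apart at 1, 8 and 16 h, and day 1 has no BXCL701 tumours at 0 h. Library totals ranged from 19133149 to 26633378 in units of the deposited values, which are estimated reads scaled per library and not whole counts, so the read depth itself is unknown.

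An antibody is built from paired heavy and light chains. In each developing B cell a heavy V, D and J segment and a light V and J segment are joined, so a B cell and its descendants carry a single productive heavy and light combination. A naive B cell places the joined heavy V region on Ighm and Ighd, and class switching moves it to an IgG, IgA or IgE constant gene. Plasma cells, the secreting descendants of B cells, hold far more immunoglobulin mRNA per cell than B cells do. In RNA from whole tumours, fewer cells of a type and less RNA per cell cannot be told apart.

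The heavy and kappa V genes with the highest mean FPKM, much of which lay in 1 tumour, and the V gene that passed a test, are shown with a nearest relative, because V gene values turn on few bases. Each sequence is the coding part of the last exon of the germline gene (up to its first 300 bases, GENCODE M21, GRCm38, minus strand), 5' to 3', and capitals mark the bases that differ between the members of a pair. The first pair is Ighv1-55, the heavy V member with the highest mean FPKM (chr12:115208100-115208399), and Ighv1-53 (chr12:115158408-115158707), which is tied with Ighv1-64 as its nearest relative. They share 95.1% of their bases and differ at 15 of 305 positions.
Ighv1-55: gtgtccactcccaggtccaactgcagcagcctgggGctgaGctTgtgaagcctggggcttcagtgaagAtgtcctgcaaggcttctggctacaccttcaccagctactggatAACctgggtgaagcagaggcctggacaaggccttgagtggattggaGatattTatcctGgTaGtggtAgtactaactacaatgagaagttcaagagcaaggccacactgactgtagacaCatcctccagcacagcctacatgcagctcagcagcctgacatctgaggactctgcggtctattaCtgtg
Ighv1-53: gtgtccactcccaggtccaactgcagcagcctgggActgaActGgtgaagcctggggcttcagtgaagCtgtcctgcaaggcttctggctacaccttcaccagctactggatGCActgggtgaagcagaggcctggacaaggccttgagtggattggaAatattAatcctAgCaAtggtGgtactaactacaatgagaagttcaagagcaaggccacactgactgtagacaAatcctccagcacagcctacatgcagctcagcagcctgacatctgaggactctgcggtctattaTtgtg
The second pair is Igkv10-96, the kappa V member with the highest mean FPKM (chr6:68631963-68632260), and Igkv10-94 (chr6:68704508-68704805), which share 94.6% of their bases and differ at 16 of 298.
Igkv10-96: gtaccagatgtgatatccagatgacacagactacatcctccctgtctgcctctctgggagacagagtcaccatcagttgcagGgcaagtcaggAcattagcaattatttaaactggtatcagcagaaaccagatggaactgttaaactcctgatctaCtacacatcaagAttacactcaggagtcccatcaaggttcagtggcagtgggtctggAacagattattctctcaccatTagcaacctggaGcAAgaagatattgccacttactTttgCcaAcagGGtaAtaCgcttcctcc
Igkv10-94: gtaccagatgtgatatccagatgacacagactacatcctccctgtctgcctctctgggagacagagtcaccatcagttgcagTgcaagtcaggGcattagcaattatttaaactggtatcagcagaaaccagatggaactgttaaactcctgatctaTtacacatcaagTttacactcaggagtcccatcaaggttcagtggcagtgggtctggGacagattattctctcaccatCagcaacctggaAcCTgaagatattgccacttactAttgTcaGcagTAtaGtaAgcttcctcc
The third pair is Igkv4-74, the member that passed the test in 1 comparison (chr6:69184835-69185134), and Igkv4-78 (chr6:69059699-69059998), which share 93.9% of their bases and differ at 19 of 309, 17 of them within the printed 300.
Igkv4-74: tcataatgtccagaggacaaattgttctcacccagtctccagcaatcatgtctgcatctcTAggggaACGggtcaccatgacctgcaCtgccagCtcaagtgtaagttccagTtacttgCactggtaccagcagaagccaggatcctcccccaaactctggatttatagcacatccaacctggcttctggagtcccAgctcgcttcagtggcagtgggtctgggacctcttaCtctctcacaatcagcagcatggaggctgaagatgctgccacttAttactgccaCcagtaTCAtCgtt
Igkv4-78: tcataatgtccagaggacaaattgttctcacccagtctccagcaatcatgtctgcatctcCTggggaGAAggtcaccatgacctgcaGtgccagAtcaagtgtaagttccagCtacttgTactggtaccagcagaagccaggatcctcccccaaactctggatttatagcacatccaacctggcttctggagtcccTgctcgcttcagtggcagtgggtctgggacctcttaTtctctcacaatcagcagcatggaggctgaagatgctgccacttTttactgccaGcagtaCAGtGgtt
Over the 74 V members the identity to the nearest relative had a median of 95.1%, and 38 members had a relative at 95% or more. V gene values are therefore uncertain wherever reads could be shared among near-identical genes. Within the tumours where they were highest, the printed genes and their relatives had separate values. In the day 7, 8 h BXCL701 tumour replicate 2, Ighv1-55 had a value of 5560 and Ighv1-53 was listed at 0, and Igkv10-96 had 7895 against 5.92 for Igkv10-94. Igkv4-78 reached at most 0.635 in any tumour.

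On the FPKM scale, which is per transcript length and allows levels to be set between genes, Igkc was the most abundant member, with a mean of 446 FPKM and a median of 217 over the 42 tumours. Ighg1, the IgG1 constant gene, had a mean of 104 FPKM and a median of 14.2. Ighg2c, an IgG constant gene that C57BL/6 mice carry, had a mean of 68.8 and a median of 21.8 FPKM, and Ighm, the IgM constant gene, a mean of 56.5 and a median of 41.3 FPKM. Means lay far above medians for the switched genes, and Ighm was the most even of these 4. Ighg2b averaged 34.8 FPKM, Igha, the IgA gene, 19.7 FPKM, and Ighg3 4.59 FPKM. Of the lambda chain, Iglv1 averaged 18.1 FPKM, Iglv2 5.25 FPKM and Iglc1 3.99 FPKM. Ighm, Igkc and Igha had a value of at least 10 in all 42 tumours, and no other member did. At the limit of the rule, 12 members had a value of at least 10 in exactly 3 tumours, with Ighv1-76 reaching 281 and Igkv4-69 reaching 214.5. A further 25 rows had such a value in 2 tumours and 43 in 1 tumour. Among those outside, Ighv1-47 reached 720 in a single tumour, Ighv1-39 reached 552 and Ighv1-84 reached 451. Ighe, the IgE constant gene, reached 14.7 in 1 tumour and was not a member.

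Immunoglobulin levels varied widely between tumours of the same group. On the log2(value + 1) scale the standard deviation within groups had a median of 1.80 over the 85 members (range 0.95 to 3.26), against 0.39 over the 16613 genes tested. Ighg1 had the widest spread of the members at 3.26, larger than in 99.8% of tested genes. Igkv10-96 followed at 3.06, and Ighm at 0.96 had the second lowest spread of the members, still larger than in 84.8% of tested genes. Of the 500 most variable genes 39 were members. Summed over all immunoglobulin rows, the share of each tumour's FPKM ran from 0.00368% to 1.13%, with a median of 0.0780%. By day the medians were 0.0541% in BXCL701 and 0.0982% in vehicle tumours on day 1, 0.127% and 0.273% on day 7, and 0.0473% and 0.00565% on day 14. The highest share was in the day 7, 8 h BXCL701 tumour replicate 2 and the lowest in vehicle day 14 replicate 1.

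**Figure D1:**
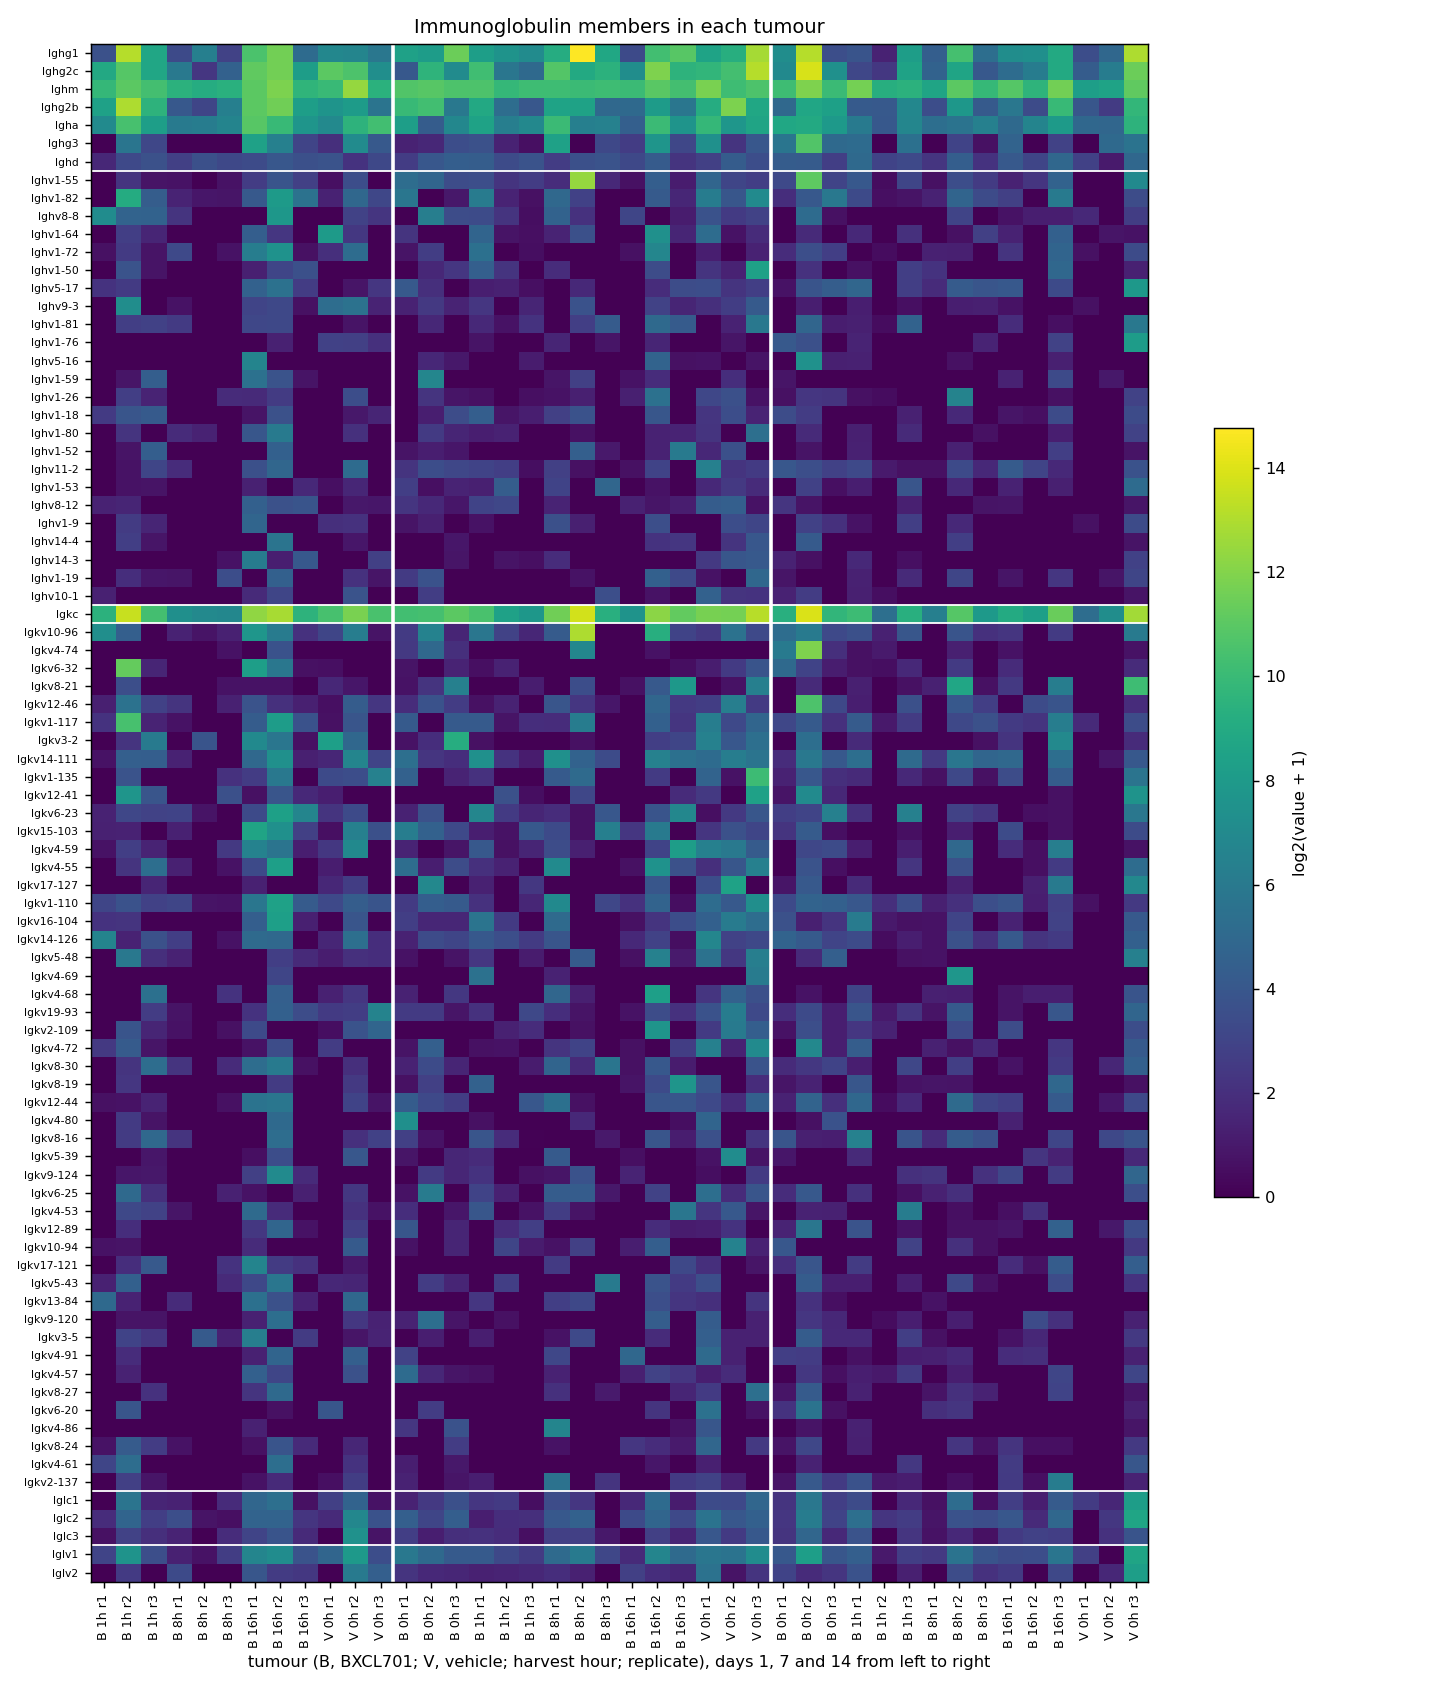
log2(value + 1) of the 85 members (rows, by class and then by mean FPKM) in 42 tumours (columns, days 1, 7 and 14 from left to right, BXCL701 left of vehicle within a day). Ighm and Igkc have values of at least 10 in every column, though Igkc is dimmer in some. Single V genes are bright in 1 or a few columns, as Igkv4-74 is in the day 14, 0 h BXCL701 tumour replicate 2.

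On day 14 no member passed the threshold between BXCL701 and vehicle tumours. Igkc had values of 41.5, 634 and 15548 (lowest, median, highest) in 12 BXCL701 tumours, against 38.1, 150 and 6755 in the 3 vehicle tumours. Ighm had 396, 1112 and 3853 in BXCL701 tumours, against 313, 376 and 2288 in vehicle tumours. For Ighm vehicle replicates 1 and 2 lay below all BXCL701 tumours and replicate 3 within their upper range. For Igkc replicate 1 lay below all BXCL701 tumours, replicate 2 among the lowest, and replicate 3 above all but 1. Ighm differed by 1.01 ± 0.59 (SE) on the log2(value + 1) scale (95% interval -0.19 to 2.22) with an adjusted p of 0.391 in limma. Igkc differed by 0.89 ± 1.24 (-1.65 to 3.42), adjusted p 0.793 in limma. The intervals include differences of several-fold in either direction for Igkc. Among the IgG genes Ighg2b differed by 0.59 ± 1.40, Ighg2c by -0.64 ± 1.53, and Ighg1 by -0.37 ± 2.00 (SE), with limma adjusted p-values of 0.897, 0.897 and 0.960. Igha differed by 0.19 ± 1.03 (SE) and the lambda gene Iglc1 by -1.59 ± 1.28 (SE).

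Of the 85 members, 56 had higher and 29 lower means in BXCL701 than in vehicle tumours on day 14, and 0 were called in limma at an adjusted p of 0.05, where 3.29% of all tested genes were. At an unadjusted p under 0.05 there was 1 member, 1.18% of the members, against 17.8% of all tested genes. The median log2 difference was 0.20 over the members and -0.01 over all tested genes. The single member was Igkv1-110, a kappa V gene, with values of 1.32, 9.83 and 25.5 (lowest, median, highest) in BXCL701 tumours, against 0, 0.577 and 4.55 in vehicle tumours. The groups overlapped, and its difference was 2.03 ± 0.98 (SE) with a limma adjusted p of 0.273. Igkv12-46 differed by 2.10 ± 1.37 and Ighv1-76 by -1.58 ± 0.99 (SE), and neither passed.

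The day 14 vehicle tumours did not resemble each other. Vehicle replicate 3 had a value of 6755 for Igkc and 7805 for Ighg1, against 38.1 and 150 for Igkc and 10.4 and 29.3 for Ighg1 in replicates 1 and 2. The same tumour had a summed keratinocyte marker level of 855 FPKM, the highest of all 42, against 21.7 and 26.9 FPKM in replicates 1 and 2. Its summed level of lymph node stroma markers was 16.9 FPKM, against 1.41 and 1.79 FPKM, and Ccl21a, the chemokine of lymphatic and high endothelial cells, had a value of 125, against 3.89 and 0. Such a Ccl21a value was not particular to that tumour. Day 14 BXCL701 tumours had 0, 1.08 and 211.7 (lowest, median, highest), and day 1 vehicle tumours had 71.2 to 230.1. All 12 keratinocyte markers tested were lower on average in BXCL701 than in vehicle tumours on day 14 (median log2 difference -1.44), with 0 called. The part of neighbouring skin or lymphoid tissue in the immunoglobulin values was not tested. Without vehicle replicate 3, limma called 1 member on day 14, Ighm, with a difference of 1.92 and an adjusted p of 0.0454, in a fit that called 2021 genes (12.2%) in place of 547. Igkc differed by 3.04 in that setting, adjusted p 0.129 in limma, and by -0.67 without vehicle replicate 1.

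On day 7 most members had lower means in BXCL701 than in vehicle tumours, and again none passed. Igkc had values of 189.8, 1414 and 13670 (lowest, median, highest) in 12 BXCL701 tumours, against 3236, 3375 and 9168 in the 3 vehicle tumours. Ighg2b had 15.4, 165 and 1237 in BXCL701 tumours, against 449, 553 and 3664 in vehicle tumours. For Igkc 11 of the 12 BXCL701 tumours lay below all vehicle tumours and 1 above them, and for Ighg2b 9 lay below all vehicle tumours and 3 within their range. Igkc differed by -1.84 ± 1.24 (95% interval -4.37 to 0.70, limma adjusted p 0.507), Ighg2b by -2.81 ± 1.40 (-5.67 to 0.04, adjusted p 0.493), and Ighg2c by -2.73 ± 1.53 (SE). Ighm differed by -0.49 ± 0.59 (SE). In all, 72 members had lower and 13 higher means, with 0 called in limma beside 0.00602% of all tested genes. At an unadjusted p under 0.05, 17 members were lower, 20% of the members, where 9.87% of tested genes passed in either direction and 4.12% were lower. The median log2 difference of the members was -1.43, against -0.03 for all tested genes. Members are read from the same tumours and so are not independent of each other. Some met the rule only with day 7 vehicle tumours. Ighv10-1, Igkv8-27 and Igkv8-24 reached 10 in exactly 3 tumours and had their highest FPKM in a day 7 vehicle tumour. The share of lower members can in part follow from the rule and is given as a description.

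The smallest p on day 7 belonged to Ighv14-3, a heavy V gene, at -3.16 ± 0.70 (SE) with a limma adjusted p of 0.287. It was listed at 0 in 8 of the 12 BXCL701 tumours and reached at most 2.69 in the rest, against 4.53, 14.2 and 16.3 in vehicle tumours. The groups did not overlap, at levels near the limit of the rule. Ighv14-3 reached 10 in 4 tumours, among them the vehicle tumours at 14.2 and 16.3. It thus met the rule of 3 tumours with the help of the group where it was high, and its difference is given as a description. Ighv10-1 differed by -2.40 ± 0.77 and Igkv4-72 by -3.69 ± 1.25 (SE), neither passing. In the other direction Igkv4-74 differed by 1.42 ± 1.18 (SE). Summed keratinocyte markers reached 679 FPKM in a BXCL701 tumour and 646 FPKM in a vehicle tumour of day 7, with medians of 31.3 FPKM in BXCL701 and 47.9 FPKM in vehicle tumours, and their part was not tested.

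The opposite direction on days 7 and 14 was tested as the difference between the day 14 and day 7 contrasts. The 85 members had a median of 1.503, against 0.07 over all tested genes, with 72 positive and 13 negative values. In limma 0 members and 0% of tested genes were called. At an unadjusted p under 0.05 there were 12 members, 14.1%, against 15.6% of all genes. Members that met the rule through day 7 vehicle tumours, such as Igkv8-27 and Ighv10-1, bear on this comparison too. The median and these counts are therefore given as a description. The smallest adjusted p was 0.183, for Igkv1-110 (4.90 ± 1.39, SE). Igkc had 2.72 ± 1.76 (95% interval -0.86 to 6.31) and Ighm 1.503 ± 0.84 (-0.20 to 3.21, limma adjusted p 0.383). Without vehicle day 14 replicate 3, limma called 2 members, Igkv1-110 at 5.62 and Ighv14-3 at 3.53, in a fit that called 763 genes (4.59%). Ighv14-3 met the rule for members with the help of day 7 vehicle tumours, so its call is given as a description.

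**Figure D2:**
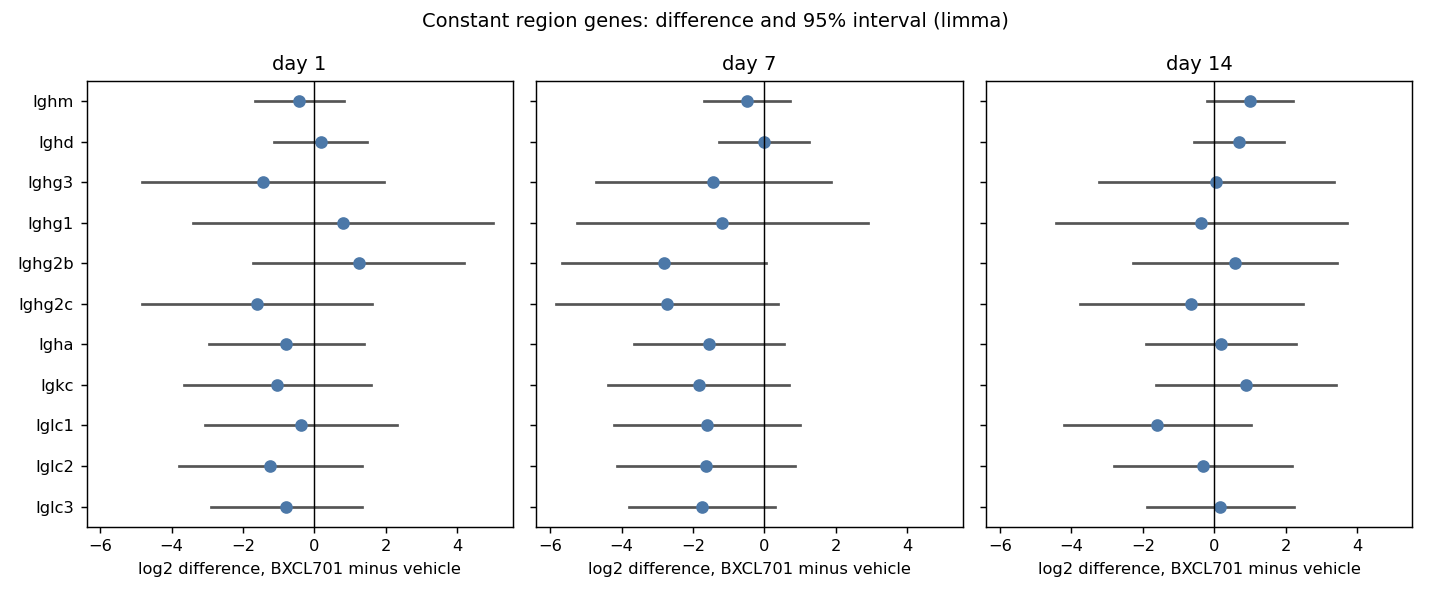
log2 difference of BXCL701 minus vehicle (dots) with 95% intervals from limma (lines) for 11 constant genes on days 1, 7 and 14. All 33 intervals include 0, among them that of Ighg2b on day 7, from -5.67 to 0.04.

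On day 1 no member was called in limma, as no tested gene was (0%). At an unadjusted p under 0.05, 4 members differed, 4.71% of them against 2.63% of all tested genes. The median was 0.11 over the members and 0.03 over all genes. Igkc differed by -1.04 ± 1.28, Ighm by -0.43 ± 0.61 and Ighg2b by 1.24 ± 1.45 (SE). Igkv6-32 had 2.87 ± 1.38 and Ighv1-76 -2.40 ± 1.03 (SE), with a limma adjusted p of 0.906 each. Within the BXCL701 tumours of day 1 the 8 h group stood apart. Igkc had values of 725, 1311 and 11679 at 1 h, 111, 122 and 164 at 8 h, and 743, 5095 and 7172 at 16 h, against 1436, 1492 and 3600 in vehicle tumours at 0 h. All 3 tumours at 8 h lay below every other day 1 tumour. Jchain, which encodes the joining chain of IgM and IgA multimers, had 13.02, 13.4 and 24.5 at 8 h, against 47.9 to 411 at 1 and 16 h and 98.4 to 215 in vehicle tumours. This pattern was noticed after the values were seen and carries no test.

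At 0 h, the hour both treatments share, BXCL701 and vehicle tumours of days 7 and 14 were compared, and 1 member passed. Igkv4-74 had values of 4.52, 31.3 and 2.98 in day 7 BXCL701 tumours and 63.4, 3863 and 3.01 in day 14 BXCL701 tumours, against 0, 0 and 0 in day 7 and 0, 0 and 0.662 in day 14 vehicle tumours. All 6 BXCL701 tumours lay above all 6 vehicle tumours, with 1 tumour holding by far the largest value. The difference was 4.78 ± 1.05 (SE) with a limma adjusted p of 0.0407, in a comparison where 0.512% of all tested genes and 1 of 85 members were called. All 5 tumours in which Igkv4-74 reached 10 were BXCL701 tumours, 3 of them among these 6, so it entered the members and the test only through the treatment where it was high, and the call is given as a description. Its values of 2.98, 3.01 and 4.52 are low beside 3863 in another library, and a part of reads assigned to the wrong library was not tested. With most vehicle values at 0 the difference is on the log2(value + 1) scale and no bound on the fold. In the other 30 tumours, Igkv4-74 was at or above 1 in 4, with the highest at 112.8 in a BXCL701 tumour of day 7, 8 h. Of 12 fits leaving out 1 tumour, 9 lost the call, with differences of 3.46 to 5.94 over all 12. The fit to the libraries of the comparison alone gave the same difference with a limma adjusted p of 0.250, and called 1 gene of all tested in place of 85.

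No other member passed at 0 h. Igkc differed by 0.47 ± 1.11 (95% interval -1.79 to 2.74) and Ighm by 0.63 ± 0.53 (-0.45 to 1.71), and Ighg2c by -0.996 ± 1.37 (SE). Ighv1-55 differed by 2.21 ± 1.44, Ighv5-16 by 1.64 ± 0.96 and Ighv14-3 by -1.75 ± 0.63 (SE), with a limma adjusted p of 0.219 for the last. Over the members the median was -0.28, against -0.02 over all tested genes, with 32 higher and 53 lower. At an unadjusted p under 0.05 there were 2 members, 2.35%, against 10.8% of all tested genes.

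Between days, no member passed in either treatment. In vehicle tumours, day 7 minus day 1 had a median of 1.30 over the members, with 75 of 85 positive, 0 called in limma beside 0% of tested genes, and 7 at an unadjusted p under 0.05 (8.24% against 18.4%). Vehicle day 14 minus day 7 had a median of -1.70 with 73 of 85 negative, 0 called beside 0%, and 18 at an unadjusted p under 0.05 (21.2% against 15.8%). In that comparison Igkc had 38.1, 150 and 6755 on day 14 against 3236, 3375 and 9168 on day 7, a difference of -3.76 ± 1.57 (SE) with a limma adjusted p of 0.235. The day 14 tumour replicate 3 lay inside the day 7 range and the other 2 far below it. Without that tumour 9 members were called lower, Igkc, Ighm, Ighg2b, Iglv1, Igkv5-48, Igkv1-110, Igkv19-93, Ighv8-12 and Ighv14-3, in a fit that called 1296 genes (7.8%). Members that met the rule through day 7 vehicle tumours bear on both comparisons with day 7, so these counts are given as a description. Vehicle day 14 minus day 1 had a median of -0.04, 0 members called beside 0.0602% of genes, and 2 at an unadjusted p under 0.05 (2.35% against 12%).

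In BXCL701 tumours, day 14 minus day 1 over 1, 8 and 16 h had a median of -0.42, with 0 members called in limma beside 1.27% of tested genes and 10 at an unadjusted p under 0.05, all lower (11.8% against 18.1% of genes in either direction). The constant genes among the lower ones were switched: Ighg2b differed by -2.83 ± 1.02 (95% interval -4.92 to -0.75, limma adjusted p 0.144), Igha by -2.15 ± 0.75 (-3.69 to -0.62, adjusted p 0.134) and Ighg2c by -2.28 ± 1.11 (-4.56 to -0.01, adjusted p 0.273). Ighm differed by 0.03 ± 0.43 (-0.85 to 0.91) in the same comparison. The difference between Ighm and the switched genes was not tested. Day 7 minus day 1 had a median of -0.07, 0 members called beside 0.12% of genes, and 3 at an unadjusted p under 0.05 (3.53% against 16.4%). Day 14 minus day 7 had a median of -0.09, 0 called beside 0.012%, and 1 at an unadjusted p under 0.05 (1.18% against 5.03%). The vehicle and BXCL701 comparisons share tumours with those given above, so they are not independent of them.

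The mix of heavy chain classes was read as each constant gene's share of the summed heavy constant FPKM in a tumour. Ighm led in 22 of 33 BXCL701 tumours and 4 of 9 vehicle tumours, Ighg1 in 6 and 1, and Ighg2c in 5 and 2. Ighg2b led in 1 vehicle tumour and Igha in 1. The IgG genes together made up 3.22% to 97.3% of heavy constant FPKM in BXCL701 tumours and 14.0% to 91.8% in vehicle tumours. The median IgG share was 53.5% in BXCL701 and 32.0% in vehicle tumours on day 1, 61.0% and 84.6% on day 7, and 25.9% and 34.3% on day 14. The ranges overlapped on each day. The Ighm share had a median of 53.4% in BXCL701 and 58.5% in vehicle tumours on day 14, and 32.9% and 11.98% on day 7. The vehicle tumour led by Igha, day 1 replicate 3, drew 63.0% of its heavy constant FPKM from that gene, where the highest share in a BXCL701 tumour was 28.4%. A low total went with a high Ighm share. The 26 tumours led by Ighm had summed heavy constant levels of 14.9 to 312 FPKM with a median of 78.4, and the 16 led by a switched gene had 111 to 1595 FPKM with a median of 401.5. Because a large total of 1 class both sets the sum and the share, these figures describe the mix and test nothing.

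**Figure D3:**
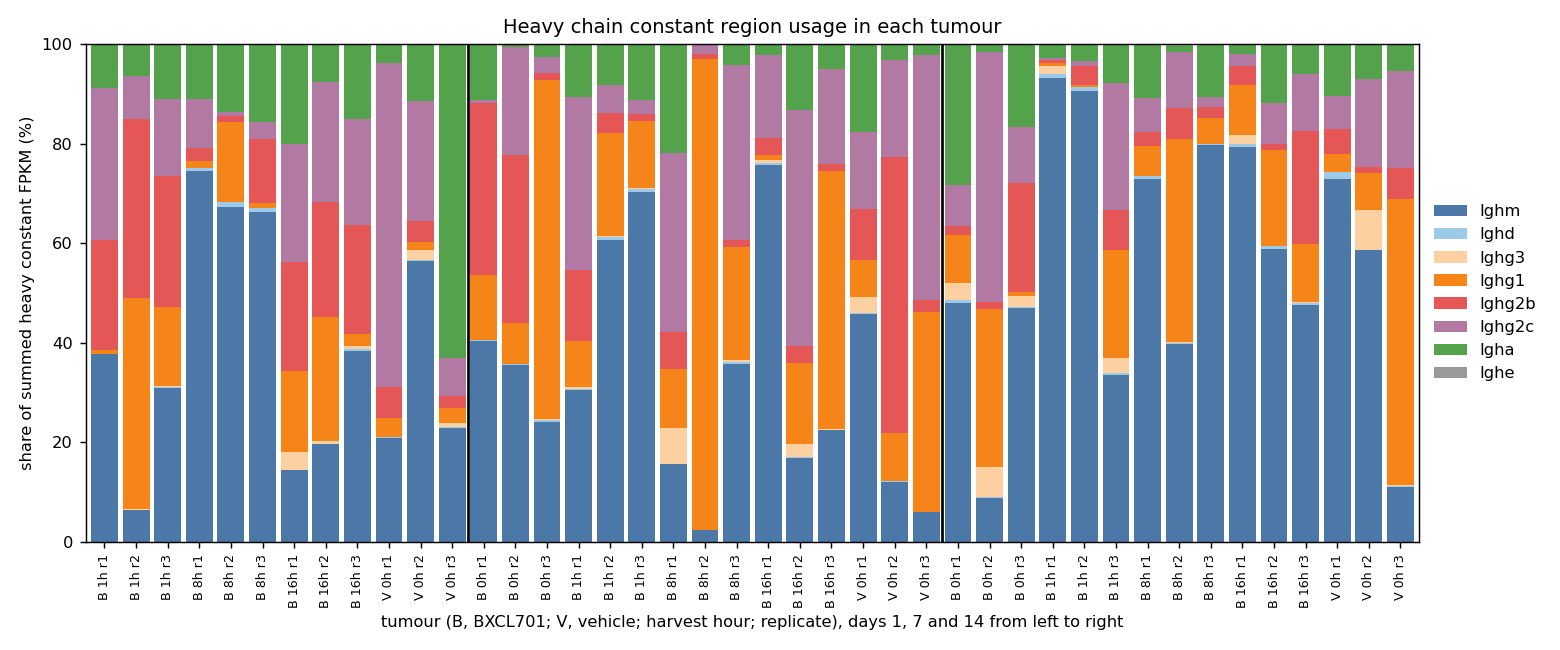
Share (%) of summed heavy constant FPKM from each heavy constant gene in each tumour, with days 1, 7 and 14 separated by black lines and BXCL701 tumours (B) left of vehicle tumours (V). Ighm (dark blue) fills 2.36% to 93.2% of a bar, and the day 7, 8 h BXCL701 tumour replicate 2 is almost wholly Ighg1 (orange).

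V gene values were set against constant gene values of the same chain. Per 100 units of heavy constant value, heavy V genes summed to a median of 4.34 in tumours led by Ighm and 7.26 in tumours led by a switched gene, with ranges of 0.652 to 8.63 and 4.82 to 19. Per 100 units of Igkc, kappa V genes summed to medians of 35.3 and 39.2. The ranges overlapped for both chains. Lambda constant genes made up 0.210% to 15.4% of light constant FPKM. Lambda shares were 1.13%, 3.05% and 6.82% (lowest, median, highest) in day 14 BXCL701 tumours, against 8.31%, 10.7% and 15.4% in day 14 vehicle tumours. These did not overlap, but in vehicle replicates 1 and 2 the lambda values were small: Iglc1 had 5.04 and 2.03, Iglc2 0.004 and 4.35. On day 7 the lambda shares were 0.210% to 5.17% in BXCL701 and 0.846% to 2.27% in vehicle tumours.

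The share of the leading V gene varied widely between tumours. In the 26 tumours whose heavy V values and kappa V values each summed to at least 100, 19 of them BXCL701 and 7 vehicle, the leading heavy V gene held 12.3% to 97.2% of heavy V FPKM (median 33.5%). The leading kappa V gene held 11.4% to 96.0% (median 32.2%). Both shares were above 50% in 3 BXCL701 tumours and 1 vehicle tumour. Tumours with a high leading heavy share tended to have a high leading kappa share, with a Pearson r of 0.81 over these 26 as a description. The leaders differed: 17 heavy V genes and 17 kappa V genes each led at least 1 of the 26 tumours. Over all 42 tumours Ighv1-82 led the heavy V genes most often, in 6, and Igkv6-23 the kappa V genes, in 5. Of 93 Ighv1 rows 15 were members, the largest V subgroup, followed by Igkv4 with 12 of 33.

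The day 7, 8 h BXCL701 tumour replicate 2 was the most extreme. Ighv1-55 made up 97.2% of its heavy V FPKM, Igkv10-96 made up 96.0% of its kappa V FPKM, and Ighg1 was its leading heavy constant gene with a value of 27775. The other 2 tumours of that group had Ighg1 values of 567 and 451 and Ighv1-55 values of 2.71 and 2.26. In the day 14, 0 h BXCL701 tumour replicate 2, Ighv1-55 again led, with 58.2%, beside Igkv4-74 with 56.9% and Ighg2c. There the second kappa V gene was Igkv12-46, with a value of 1584. In the day 7, 0 h BXCL701 tumour replicate 3, Ighv1-15 held 77.8% and Igkv3-2 held 73.45%, with Ighg1 leading. In the day 1 vehicle tumour replicate 1, Ighv1-64 held 64.5% and Igkv3-2 held 72.3%, with Ighg2c leading. The same light chain gene thus led beside different heavy V genes in a BXCL701 and a vehicle tumour, and Ighv1-55 led beside different light chain genes in 2 BXCL701 tumours.

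**Figure D4:**
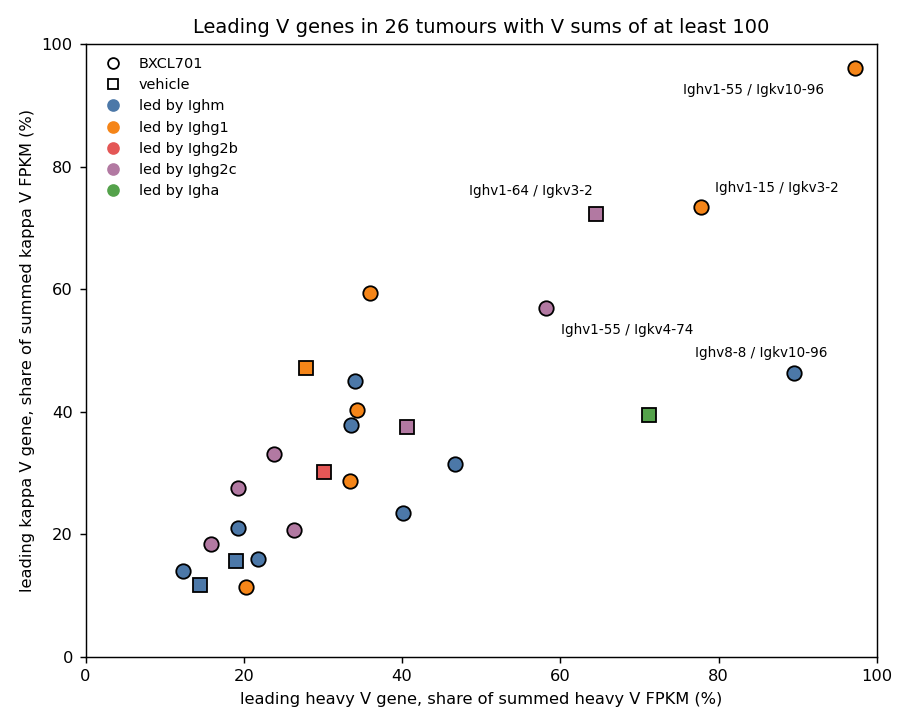
Share of the leading heavy V gene (horizontal, % of heavy V FPKM) against that of the leading kappa V gene (vertical, % of kappa V FPKM) in 26 tumours, coloured by the leading heavy constant gene, with BXCL701 as circles and vehicle as squares. The 4 tumours with both shares above 50% are labelled with their leading genes, together with the tumour led by Ighv8-8 and Igkv10-96 (89.6% and 46.3%).

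Many members rested on a single tumour. For 23 of 85 members more than 50% of the FPKM summed over 42 tumours lay in 1 tumour, 16 of them kappa V genes and 5 heavy V genes. The share was 94.0% for Igkv4-74, 85.2% for Igkv6-32, 82.8% for Igkv10-96 and 81.7% for Igkv12-46, all in BXCL701 tumours, and 81.6% for Ighv1-76 in a vehicle tumour. For Igkc it was 13.6%. Of the 8 V genes highest in the day 14, 0 h BXCL701 tumour replicate 2, Igkv4-74 alone was at or above 1 in all 5 other BXCL701 tumours at 0 h and below 1 in all 6 vehicle tumours of days 7 and 14. Ighv1-55, the second of them, had 7.12 to 37.0 in those 5 BXCL701 tumours and reached 126 in a vehicle tumour. Igkv4-74 had been singled out by that same 0 h comparison, so its pattern is a description and no support for the call.

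Across tumours, outside the immunoglobulin rows, Igkc had its highest correlations with the plasma cell genes Jchain and Mzb1. Igkc and Jchain had a Pearson r of 0.94 and a Spearman rho of 0.95 over 42 tumours (permutation p 0.00001 each, the smallest that 100000 permutations can give, adjusted 0.00003 over 12 relations). Without the 2 tumours farthest from the median of Igkc, r was 0.96, and within the 33 BXCL701 tumours it was 0.93. Igkc and Mzb1, a chaperone of antibody secreting cells, had r of 0.88 and rho of 0.90, with the same permutation p. For Ms4a1, which encodes the B cell surface protein CD20, r with Igkc was 0.49 and rho 0.53 (permutation p 0.00112 and 0.00038, adjusted 0.00168 and 0.000651), and 0.51 without the 2 farthest tumours. For Cd79a, a part of the B cell receptor, they were 0.54 and 0.55 (permutation p 0.00022 each, adjusted 0.000528 and 0.00044). The relations of Igkc with Cd8a, a marker of cytotoxic T cells (r 0.22, rho 0.20, permutation p 0.157 and 0.210, adjusted 0.189 and 0.210), and with Ccl21a (r 0.19, rho 0.20, permutation p 0.224 and 0.202, adjusted 0.224 and 0.210) did not pass. The difference between correlations was not tested. After subtracting group means r was 0.92 for Jchain, 0.92 for Mzb1, 0.72 for Ms4a1, 0.73 for Cd79a, 0.42 for Ccl21a and 0.02 for Cd8a, given without a test.

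Ighm had lower correlations with the same plasma cell genes, with r of 0.71 and rho of 0.72 for Jchain and r of 0.77 and rho of 0.79 for Mzb1 (permutation p 0.00001 each). With Ms4a1 it had r of 0.54 and rho of 0.62 (permutation p 0.00028 and 0.00002). Outside the immunoglobulin rows, the 10 genes with the highest r to Igkc were Jchain, Mzb1, Slpi, Bhlha15, Ly6c2, Il16, Il17ra, Sirpb1c, Irf4 and Derl3, from 0.94 down to 0.61. Those nearest to Ighm were led by Mzb1, Ly6c2, Jchain, Bhlha15 and C4b, and those nearest to Ighg1 by Slpi (0.80), Jchain, Mzb1 and Bhlha15. They were ranked over all tested genes, so their r values are given as a description.

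Genes of B cells and of antibody production were counted by list. Of B cell markers 13 of 15 were tested, and on day 14 0 passed, with 9 higher, 4 lower and a median log2 difference of 0.72. Cd22, a B cell co-receptor, differed by 0.84 ± 0.27 (SE) with a limma adjusted p of 0.0735. At 0 h of days 7 and 14 Cd22 rose by 1.07 ± 0.24 (SE, limma adjusted p 0.0409). Its values were 214 to 330 in the 6 BXCL701 tumours against 81.6 to 221 in the 6 vehicle tumours, which overlapped. No other B cell marker passed there, and their differences lay in both directions. Cxcr5 differed by 0.77 ± 0.54 and Ms4a1 by 0.19 ± 0.66, Cd79a by -0.21 ± 0.77 and Cr2 by -1.10 ± 0.81 (SE). Of plasma cell genes 13 of 14 were tested, with 0 called in any of the 4 treatment comparisons. On day 14 Jchain differed by 0.74 ± 1.09 and Mzb1 by 0.46 ± 1.12, and on day 7 by -1.96 ± 1.09 and -1.29 ± 1.12 (SE). The list did not move in a single direction. Its smallest p-values on day 14 were those of Tnfrsf13b at 0.39 ± 0.15 and Eaf2 at -1.40 ± 0.60 (SE). On day 7 these 2 genes differed by 0.21 ± 0.15 and -0.45 ± 0.60 (SE). Of germinal centre and class switching genes 7 of 8 were tested and 0 were called on days 1, 7 or 14. Of V(D)J recombination and pre-B cell genes 1 of 7 was tested, and Rag1 was listed at 0 in 37 tumours. Among B cell markers Ms4a1 reached a value of 10 in 9 tumours and Cd79a in 37. Among plasma cell genes Mzb1 did in 23 and Jchain in 38.

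Among genes that act on B cells or bind antibodies, 1 of 6 help and survival genes tested rose on day 14, Icosl, the ligand of the T cell receptor ICOS, by 0.89 ± 0.22 (SE, limma adjusted p 0.0242). Tnfsf13b, the B cell survival factor BAFF, differed by 0.79 ± 0.25 (SE, adjusted p 0.0683) and did not pass. Of 8 antibody receptor and transport genes tested Fcgr3, an activating IgG receptor of myeloid and natural killer cells, rose by 0.88 ± 0.25 (SE, limma adjusted p 0.0438). Of 10 T cell genes, Cd8a and Cd8b1 rose on day 14, by 1.44 ± 0.36 and 1.45 ± 0.42 (SE, limma adjusted p 0.0244 and 0.0469). Of all tested genes 3.29% were called on day 14. On day 7 and day 1 no gene of these lists passed in limma. At 0 h of days 7 and 14, the hour both treatments share, Icosl differed by 0.81, Fcgr3 by 0.66, Cd8a by 1.18 and Cd8b1 by 1.34. None of them passed there (limma adjusted p 0.0546, 0.180, 0.0829 and 0.0836). Summed B cell markers were 7.01 to 22.7 FPKM in day 14 BXCL701 tumours, against 5.74 to 20.9 FPKM in day 14 vehicle tumours, and summed T cell markers were 31.0 to 86.0 FPKM against 18.5 to 59.8 FPKM.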

How the data were processed

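RNA of 42 subcutaneous tumours was sequenced. The submitters' processing notes name Trimmomatic 0.36, Bowtie 0.12.9 and GRCm38. How genes were quantified, scaled and annotated, and whether strand was used, is not given in the sources used here. In the authors' deposited gene table the signal values are not whole numbers. They were taken as estimated reads scaled per library, so the planned count test was replaced by limma. The authors' deposited log2 FPKM table gave levels between genes, shares within tumours and an alternative. A further deposited copy of it (largest difference 0) was not used, and 0 columns belonged to no listed sample. The 16613 of 47729 genes that reached 10 in 3 or more libraries were tested as log2(value + 1). The test was limma (version 3.58.1, R version 4.3.3, data.table version 1.17.8) with an intensity trend, robust moderation, 14 group coefficients and 28 residual degrees of freedom. Fold changes understate those of low genes. Each BXCL701 hour had equal weight. Adjusted p-values are Benjamini-Hochberg over all 16613 genes in each of 11 comparisons (two-sided, threshold 0.05), and intervals are 95%. Correlations used 100000 two-sided permutations. The members and lists were chosen with earlier results of these data known. Named members were drawn from all constant genes, the V genes of highest mean FPKM and the 3 smallest p-values in each direction of a comparison. Members named for single tumours were chosen after their values were seen. Positions and V sequences are those of GENCODE M21, read with Biopython 1.88 in Python 3.11.15 with pandas 2.3.3, numpy 2.4.6 and matplotlib 3.10.9. No libraries were near-identical (highest correlation 0.9813). The procedure was tested on simulated log values with a normal spread, which do not copy genes near 0 in most tumours and high in 1. Alternatives were a pseudocount of 5, the FPKM table (pseudocount 0.1), unfiltered genes, scaling by median-of-ratios factors, a fit to the compared libraries only, and each library left out.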

Additional observations from a re-analysis of the deposited data

How the results depend on the processing

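No paired analysis was possible because each tumour came from a separate animal. The labels number no replicates, so the replicate numbers used here only name tumours. The number of members called stayed at 0 under every alternative run for day 1 and day 7, for vehicle day 7 minus day 1 and day 14 minus day 1, and for the 3 BXCL701 comparisons between days. At 0 h of days 7 and 14 the count of 1 was 0 without the filter, with a pseudocount of 5 and with the libraries of the comparison alone, and 0 to 1 when leaving out a library. Igkv4-74 then had limma adjusted p-values of 0.0618, 0.0715 and 0.250, and passed in 5 of 17 alternatives. Leaving out 1 library gave 0 to 1 calls on day 14, 0 to 9 for vehicle day 14 minus day 7 and 0 to 2 for the difference of the day 14 and day 7 contrasts, and the non-zero counts were those without vehicle day 14 replicate 3.

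Differences that changed sign did so when leaving out 1 library. On day 1 Ighm ran from -1.02 to 0.46, and on day 7 Ighv1-59 ran from -0.12 to 1.08. On day 14 the ranges were -0.67 to 3.04 for Igkc, -2.94 to 1.13 for Ighv1-76, -2.86 to 0.45 for Iglc1 and -2.58 to 0.63 for Igkv5-48. At 0 h Igkc ran from -0.31 to 1.55. For vehicle day 14 minus day 1 they were -0.0002 to 2.45 for Igkv9-124, -0.83 to 4.26 for Igkv8-21 and -0.41 to 3.38 for Igkv12-41. For vehicle day 14 minus day 7 they were -0.28 to 3.79 for Ighv1-76, -0.43 to 1.55 for Igkv4-61 and -0.44 to 2.05 for Igkv8-30. For the difference of contrasts they were -3.04 to 1.03 for Ighv1-76 and -3.33 to 2.07 for Igkv8-21. The cause was not tested. The read depth is unknown, and most V genes have values near 0 in most tumours.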
